A study of Homo sapiens and Mus musculus with 12 samples.

Results

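The regions described here are the intronic LSD1 peaks of K562 cells at which no GFI1 peak was called. K562 is a human line from chronic myeloid leukemia with erythroid features, and the cells expressed Cas9 and a non-targeting sgRNA (sg-NT). A peak was taken when its summit lay over 1000 bp from every start of a protein-coding transcript in GENCODE release 44, in no exon and inside a gene body on GRCh38, and when it shared no base with a GFI1 peak of the same cells. The GFI1 list of these cells held 498 peaks, and GFI1 signal below the calling threshold counted as absent. Of the 6548 LSD1 peaks of sg-NT cells, 2619 met this rule. The other LSD1 peaks were 1603 at promoters, 1566 between genes and 370 in exons, all without GFI1, as well as 201 intronic and 189 other peaks that shared bases with GFI1.

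ChIP-seq peak lists of 5 libraries were at hand, with 1 library per condition. They were LSD1 and GFI1 in sg-NT K562 cells, GFI1 in K562 cells with Cas9 and a sgRNA against LSD1 (sg-LSD1), and GFI1 and SPI1 in THP1 cells, a monocytic leukemia line without a sgRNA. Chromatin had been crosslinked with both DSG and formaldehyde. The input libraries and the 4 H3K4me1 libraries from CD117+ cells of mice were not used here. With single libraries there were no replicates, and p-values over peaks are not given. The lists hold no expression levels and no LSD1 ChIP of sg-LSD1 cells, so neither cell type markers nor the loss of LSD1 were checked.

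LSD1 (KDM1A) is a histone demethylase that removes methyl groups from lysine 4 of histone H3 and acts in repressor complexes with RCOR1 (CoREST) and the histone deacetylases HDAC1 and HDAC2. It does not read DNA sequence by itself and is brought to enhancers by DNA-binding factors. GFI1 and its relative GFI1B recruit it through their SNAG domain, while in erythroid cells it is also found with the GATA1 and TAL1 complexes. Introns hold many enhancers, and they also hold most of the interspersed repeats that lie within genes.

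The sequences below are 80 bp of GRCh38, plus strand, centered on the LSD1 summit. The first belongs to the peak with the largest −log10 p, and its window held no motif core and none of the repeat words defined below. The longest run of bases that occurs more than once in it had 17 bp, against 5 to 10 bp in the other windows shown here. The bearing of this repeated sequence on the placement of reads was not tested.
CDH15 intron 5, chr16:89186421-89186500: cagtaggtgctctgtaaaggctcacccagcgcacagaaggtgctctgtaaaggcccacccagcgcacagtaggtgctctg
The next lines show strong peaks with a motif core in capitals. These are the GATA core AGATAA or its reverse complement (WDR86 and SHB), the GATA-TAL1 composite (USP48) and the GFI1 core AATCAC (SWI5). The SHB window also holds MIR words, defined below, which lie before the GATA core and overlap it. Cores were sought only in the 50 bp at the summit, so those nearer the ends of a window are not marked. Such are a GATA core in the SWI5 window and a GATA and an E-box core in the CEACAM16-AS1 window.
WDR86 intron 3, chr7:151395589-151395668: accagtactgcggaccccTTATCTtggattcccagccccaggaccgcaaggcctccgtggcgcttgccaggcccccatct
SHB intron 3, chr9:37968253-37968332: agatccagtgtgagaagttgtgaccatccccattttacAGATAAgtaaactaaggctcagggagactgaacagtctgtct
USP48 intron 6, chr1:21750031-21750110: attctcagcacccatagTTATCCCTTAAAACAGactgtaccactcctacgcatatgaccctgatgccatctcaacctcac
SWI5, chr9:128296744-128296823: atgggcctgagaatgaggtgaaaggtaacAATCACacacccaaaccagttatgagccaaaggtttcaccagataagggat
The last lines show peaks with a word of MIR (CEACAM16-AS1 and MICAL2) or L2 elements (SULT2B1 and TMEM143) in capitals, since such words were frequent at the summits and rare in the flanks. L2 is a long interspersed element, as is L1, which is described below, and MIR is an ancient short interspersed element.
CEACAM16-AS1, chr19:44695907-44695986: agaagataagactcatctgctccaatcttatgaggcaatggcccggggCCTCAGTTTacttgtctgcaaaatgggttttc
MICAL2 intron 2, chr11:12148916-12148995: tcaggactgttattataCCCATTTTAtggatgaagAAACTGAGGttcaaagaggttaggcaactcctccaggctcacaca
SULT2B1 intron 3, chr19:48588793-48588872: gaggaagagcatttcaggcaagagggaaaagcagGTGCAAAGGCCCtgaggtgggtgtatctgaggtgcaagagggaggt
TMEM143 intron 3, chr19:48351631-48351710: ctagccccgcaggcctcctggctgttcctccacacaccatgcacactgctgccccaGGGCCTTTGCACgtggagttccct

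Most of the intronic peaks were weak. The fold, which is the signal at the summit over the local background as the authors deposited it, had a median of 7.0 and ranged from 3.41 to 37.3. The −log10 p had a median of 11.3 and ranged from 5.09 to 95.9, and the median width was 332 bp. Fold and −log10 p were solved together for the number of fragments over each summit, which had a median of 13 and ranged from 6 to 84. The strength of a peak and the absence of a GFI1 call entered the choice of these regions, so the following values are given as a description. The intronic peaks shared with GFI1 had a median fold of 12.1, a median −log10 p of 24.7 and a median of 23 fragments, and they were 538 bp wide in the median. Promoter peaks without GFI1 had a median fold of 6.41 and intergenic ones of 7.03.

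At the edges of the rule, the lowest −log10 p was 5.09 at a peak in KCTD2. The peak nearest to a coding start lay 1003 bp away in GDPD5, and the farthest intronic peak that counted as promoter lay 999 bp from the start of CYRIB. The peak nearest to a GFI1 peak lay in ARID3A with a gap of 170 bp, and the shared peak with the smallest overlap had 56 bp in common with GFI1, in TEX14. A GFI1 peak lay within 500 bp of 3 of the intronic peaks and within 10000 bp of 77.

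The strongest peaks lay in genes of different functions. CDH15, which encodes a cadherin of muscle cells, held the one with the largest −log10 p (95.9) and fold (37.3), with 60 fragments. SULT2B1, a sulfotransferase of cholesterol and other sterols, followed with a fold of 36.2 and 58 fragments. The peak in TLE2, a co-repressor of the Groucho family, had a fold of 29.3 and 54 fragments. In EBI3, a cytokine subunit of IL-27, the fold was 26.3 with 53 fragments, and in MICAL2, an actin-oxidizing enzyme, it was 25.7 with 46 fragments. TMEM143 and SLC44A2 followed with −log10 p values of 63.5 and 58.7. Of the 10 strongest by −log10 p, 2 lay in no protein-coding gene, namely one in the long non-coding RNA gene CEACAM16-AS1 (fold 30.1) and one in the pseudogene ENPP7P7 (fold 25.3).

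The remaining peak among the 10 strongest differed from the others in its local background. In intron 11 of ARVCF, a catenin gene on chromosome 22, 84 fragments were found, the most of all the intronic peaks. The background there was 7.52 times the genome-wide value of the library, so the fold was 14.8, which ranked 87 by fold and 4 by −log10 p. A background over 5 times the genome-wide value was found at 49 peaks (1.87%), and 663 peaks (25.3%) had the genome-wide value itself. Of the 49, 18 lay on chromosome 22 between 16666682 and 23224102, and 13 lay on chromosome 9, 10 of them on the stretch of its long arm that holds ABL1.

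**Figure D1:**
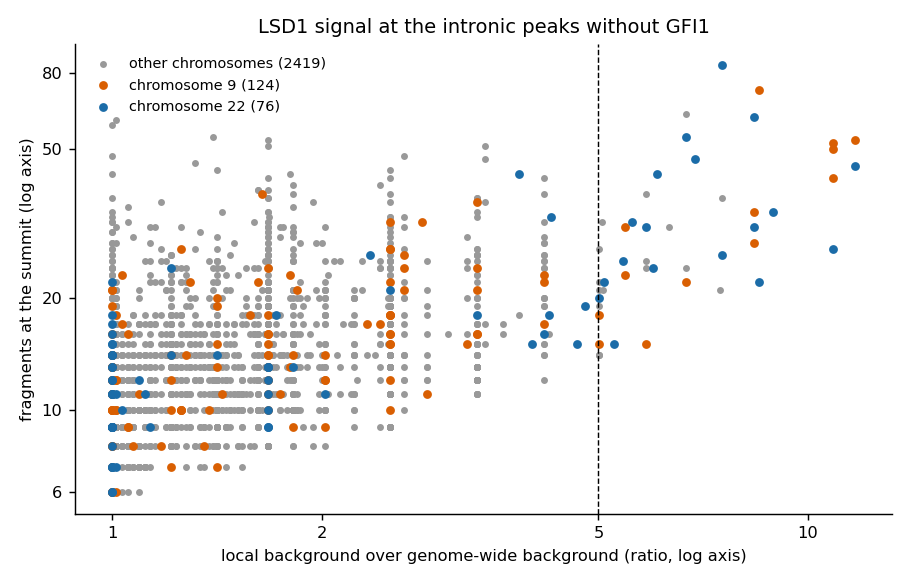
Fragments over the LSD1 summit against the local background relative to the genome-wide value of the library, both on log axes, with 1 point for each of the 2619 intronic peaks without GFI1. Of the 49 points right of the dashed line at 5, 18 lie on chromosome 22 and 13 on chromosome 9, and the point with the most fragments (84) is the peak in ARVCF.

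K562 cells are known for an amplified BCR::ABL1 fusion of these 2 chromosomes. The peak in intron 2 of ABL1, the kinase of the fusion, had 50 fragments at a background of 10.9 times the genome-wide value and a fold of 6.50. The stronger of the peaks in BCR, in intron 1, had 45 fragments at 11.7 times and a fold of 5.49. In AIF1L, near ABL1, 72 fragments at 8.50 times gave a fold of 11.5, and in SNAP29 on chromosome 22 61 fragments at 8.36 times gave a fold of 9.89. Fragment numbers were therefore among the highest at these loci, while the folds were moderate. The part of DNA copy number in these values was not tested.

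The intronic peaks were spread over many genes. A protein-coding gene body held 2100 of them (80.2%), and the other 519 lay only in genes of other types. Of 20046 protein-coding genes, 1607 (8.02%) held at least 1 peak. Of these, 1223 held 1 peak, 276 held 2 and 108 held 3 or more. Over all sequence that the rule could have taken, which is 1581 Mb of introns over 1000 bp from a coding start, there were 1.66 peaks per Mb. Chromosome 19 had 289 peaks and 9.82 per Mb, followed by chromosomes 16 and 22 with 3.78 each. Among the chromosomes that held a peak, the lowest densities were 0.157 per Mb on the X chromosome and 0.413 on chromosome 13.

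GSE1, which encodes a subunit of a CoREST-type LSD1 complex, held the most peaks. Its introns had 30 peaks in 476.7 kb, which is 62.9 per Mb, and 1 of the 32 LSD1 peaks in the gene body shared bases with GFI1. The folds of the 30 ranged from 4.19 to 18.4 with a median of 7.81, and 10 held a word of the L1, MIR or L2 sets. The one with the largest −log10 p, at chr16:85535319-85535909, had 62 fragments, a fold of 12.1 and a background of 6.69 times the genome-wide value. The next one, at chr16:85303213-85303767, had 34 fragments, a fold of 18.4 and a background of 1.44 times. A raised background therefore stood beside the first and not beside the second, and the median over the 30 was 1.79 times.

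NFIC, a transcription factor of the nuclear factor I family, held 10 peaks in 139.9 kb of introns, and 0 of its 11 LSD1 peaks had GFI1. CLEC16A, a regulator of autophagy, held 8 in 218.7 kb. The genes CCND3, which encodes cyclin D3, CMIP and ENSG00000255872, which overlaps SHB, held 7 each. At CCND3 the density was 65.8 per Mb and the median background 3.34 times the genome-wide value. ZFPM1, the GATA1 cofactor FOG1, held 6 in 75.8 kb, or 79.2 per Mb. DLGAP1 held the same number in 921.5 kb, or 6.51 per Mb. Long introns and dense peaks were therefore both found among the genes with many peaks. The protein-coding genes with a peak had a median of 72.5 kb of intronic sequence open to the rule, against 21.0 kb in those without.

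Within genes, the peaks lay toward the first intron. Of 1748 peaks in an intron of a canonical protein-coding transcript, 677 (38.7%, 95% Wilson interval 36.5 to 41.0) lay in intron 1, which made up 24.1% of the intronic bases open to the rule. Intron 2 held 313 (17.9%). Among the intronic peaks shared with GFI1, 35.6% lay in intron 1, and the difference of 3.17 percentage points had an interval of −5.50 to 11.1, so no difference was detected. The median distance to the nearest coding start was 15335 bp. The distance was at most 5000 bp for 619 peaks and over 100000 bp for 289, and the median −log10 p was 11.3 in both of these bins. Another LSD1 summit lay within 1000 bp of 86 peaks (3.28%).

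Motif cores were searched on both strands in 50 bp at the summit and in windows of the same size 2000 bp to either side. The cores were AGATAA for GATA factors, CAGATG for the E-box of TAL1, CTG followed by GATAA after 7 or 8 bases for the GATA-TAL1 composite, TGTGGTT for RUNX, TGAGTCA for AP-1, GCTGAGTCA for NFE2, AATCAC for GFI1, GAGGAAGT for SPI1, CCNCNCCC for KLF factors and TTCNNNGAA for STAT. The NFE2 core contains that of AP-1, and the composite shares bases with the GATA core. Sequence did not enter the choice of the peaks. For 6 of the 10 cores, the 95% Newcombe interval of the difference between summits and flanks left out 0. All of these intervals cover counting error only.

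The GATA core, bound by GATA1 and GATA2 in erythroid and stem cells, was the most frequent core at the summits. It was found at 240 peaks (9.16%), against 7.71% of all LSD1 peaks. In the flanks the share was 2.27%, and the difference was 6.89 percentage points (5.76 to 8.11). With the peaks split by −log10 p into 4 bins of 654 or 655, the share was 7.02% in the weakest bin, then 7.48% and 8.72%, and 13.4% in the strongest (11.0 to 16.3). At the WDR86 and SHB summits shown above, the folds were 19.8 and 19.2. The GATA-TAL1 composite, the site of the joint complex, was found at 37 peaks (1.41%), against 0.248% of flanks (difference 1.16, 0.740 to 1.70) and 1.07% of all LSD1 peaks. The strongest of these lay in USP48 with 27 fragments and a fold of 13.6.

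The E-box core was found at 230 peaks (8.78%), against 3.32% of flanks (difference 5.46, 4.31 to 6.69) and 7.88% of all LSD1 peaks. Of these 230, 102 also held a MIR word, one of which contains the E-box core. Without the peaks that hold a repeat word, the difference fell to 2.38 percentage points (1.30 to 3.57). The RUNX core was found at 65 peaks (2.48% against 0.840% of flanks, difference 1.64, 1.04 to 2.34), while 2.15% of all LSD1 peaks had it. The AP-1 core was found at 45 peaks (1.72% against 0.573%, difference 1.15, 0.650 to 1.74), with 1.57% in all LSD1 peaks. The NFE2 core, an erythroid and megakaryocytic relative of AP-1, was found at 5 peaks (0.191%), against 0.0191% of flanks (difference 0.172, 0.0309 to 0.428) and 0.153% of all LSD1 peaks. This difference rests on few peaks and was not apart from 0 with coding genes only (0.117) or with flanks at 5000 bp (0.115).

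The GFI1 core was not enriched. It was found at 55 summits (2.10%) and in 2.27% of flanks, a difference of −0.172 percentage points (−0.825 to 0.553), while 2.46% of all LSD1 peaks had it. In the strongest bin 3.66% held it (2.47 to 5.39), and in the weakest 1.83% (1.05 to 3.17). The SWI5 peak shown above had 36 fragments and a fold of 11.9. For the SPI1 core (8 peaks, 0.305%, against 0.321% of all LSD1 peaks), the KLF core (169, 6.45%, against 8.95%) and the STAT core (35, 1.34%, against 1.24%), the interval of the difference from the flanks also held 0. These differences were 0.0382 (−0.197 to 0.353), 0.248 (−0.867 to 1.43) and 0.439 percentage points (−0.0364 to 1.00).

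Against 4 other classes of LSD1 peaks (intronic shared with GFI1, and promoter, intergenic and exonic without GFI1), the interval left out 0 in 10 of 40 comparisons. The intronic peaks shared with GFI1 held the GFI1 core more often, at 6.47%. The difference of those without GFI1 from them was −4.37 percentage points (−8.68 to −1.65). These 2 classes were split by the GFI1 call in sg-NT cells, so this difference is a description. The shared peaks were also stronger, and among LSD1 peaks with a −log10 p of at least 20, a limit chosen after the values were seen, the difference was −0.642 (−5.76 to 2.69). For the GATA core the difference from the shared peaks was −4.27 (−9.77 to −0.0699), which became −0.818 (−8.44 to 5.42) at this limit. For the RUNX core it was −3.49 (−7.70 to −0.879), which was not tested at this limit. Against promoter peaks without GFI1, the GATA core was 6.11 percentage points more frequent (4.69 to 7.49) and for the KLF core, a GC-rich box, the difference was −8.77 (−10.8 to −6.81). The E-box (2.67, 1.03 to 4.24), RUNX (1.86, 1.12 to 2.59), AP-1 (1.09, 0.418 to 1.73) and GATA-TAL1 cores (0.976, 0.374 to 1.55) were also more frequent than at promoter peaks. The GATA-TAL1 core was more frequent than at exonic peaks, by 1.41 percentage points (0.315 to 1.94). Against intergenic peaks without GFI1, no interval of the 10 cores left out 0, and the GATA core differed by 0.352 (−1.48 to 2.10). Median GC content in 50 bp at the summit was 48% in the intronic peaks with and without GFI1 and in the intergenic ones, and higher, at 60%, in promoter peaks.

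Words of 9 bases were then counted in 80 bp at the summits and in the flanks, and 98 of them were found at 50 or more of the intronic peaks and at least 10 times as often as in the flanks. From these, 3 sets were formed that belong to repeat families by general knowledge, since no repeat annotation was used here. The words were ACTATGCAG for L1, CCCATTTTA, ATTTTACAG, ACAGATGAG and AAACTGAGG for MIR, and CAAAGGCCC and CCTTTGCAC for L2. They were chosen on these same peaks, so their shares are a description. Any of the words was found at 459 peaks (17.5%).

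MIR words were found at 267 peaks (10.2%), against 1.05% of flanks and 8.49% of all LSD1 peaks. Their share rose with strength, from 3.21% in the weakest bin to 18.8% in the strongest. The peaks in ARVCF, MICAL2 and CEACAM16-AS1 among the 10 strongest held one. MIR words were found at 7.30% of promoter and 8.75% of intergenic peaks without GFI1, and at 2.99% of the intronic peaks shared with GFI1. In the GFI1 list of sg-NT cells 0.602% of summits held one, and in the GFI1 list of THP1 cells 0.665%, equal to the flanks of each. The L2 words were found at 67 peaks (2.56% against 0.229% of flanks and 1.89% of all LSD1 peaks), among them those in SULT2B1 and TMEM143.

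The L1 word was found at 125 peaks (4.77%), against 0.0382% of flanks and 3.05% of all LSD1 peaks. Intergenic peaks without GFI1 held it at 4.47%, and promoter peaks at 0.187%. Of the 201 intronic peaks shared with GFI1, 0 held it, which allows a share of up to 1.49% (taken as 3 counts of the total), and of the 3461 GFI1 peaks of THP1 cells 1 did. The peaks with the word had a median fold of 6.80 and lay a median of 29346 bp from the nearest coding start, against 15043 bp for those without. By strength, the share was 4.12%, 6.11%, 5.81% and 3.05% from the weakest to the strongest bin. Of the 79 in an intron of a canonical coding transcript, 25 (31.6%) had the word on the strand of the gene. Over all 9698 copies of a longer form of the word in such introns, made of the word and one that overlaps it, the share was 36.3%. The GATA core stood beside the L1 word at 4 peaks and the GFI1 core at 0. Peaks in blacklisted regions of low mappability had been removed, but the sources name no mapping quality filter, so reads of near-identical copies may have been placed at any of them, and the position of these peaks is uncertain.

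Few of the intronic peaks were present in the other lists. In all, 2534 (96.8%) overlapped no peak of the 3 remaining lists, which are GFI1 in THP1 cells, SPI1 in THP1 cells and GFI1 in sg-LSD1 K562 cells. A GFI1 peak of THP1 cells was found at 63 (2.41%, 1.88 to 3.07), against 4.60% of all LSD1 peaks. The intronic peaks shared with GFI1 had it at 10.9%, a difference of −8.54 percentage points (−13.6 to −4.87). These 2 classes were split by the GFI1 call in sg-NT cells, so their difference is a description. Promoter peaks without GFI1 had it at 6.86%, a difference of −4.46 (−5.90 to −3.14). The peaks shared with GFI1 were also stronger. Among the intronic peaks without GFI1 that reached a −log10 p of 20, the share was 4.45%. That of the shared peaks at this limit is not given, so the part of strength in their difference was not tested. Against exonic peaks the difference was −2.46 (−5.20 to −0.574). Intergenic peaks did not differ detectably (2.68%, −1.34 to 0.680). The strongest such peaks were those in CDH15, with a GFI1 fold of 14.4 in THP1 cells, TLE2 with 7.50, FAM117A with 8.69, COPZ1 with 7.72 and D2HGDH with 4.54. Among the 63, 5 held the GFI1 core and 1 the GATA core.

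A SPI1 peak of THP1 cells was found at 17 of the intronic peaks (0.649%, 0.406 to 1.04), against 0.779% of all LSD1 peaks, and no difference was detected from the 4 classes it was compared with. The SPI1 summit lay within 200 bp of the LSD1 summit at 11 of the 17, and with an overlap of 50% of the shorter peak the share was 0.382%. The strongest of them by LSD1 lay in ERCC1, a DNA repair gene, with a SPI1 fold of 8.41 and the summits 477 bp apart. GNA15, a G protein gene of blood cells, and ADGRE5, which encodes the leukocyte antigen CD97, had SPI1 folds of 11.1 and 13.5, with summits 773 and 180 bp apart. The others of the 5 strongest, in ENSG00000268797 and TSPOAP1-AS1, had folds of 9.52 and 4.37, with summits 67 and 507 bp apart.

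In sg-LSD1 cells, GFI1 was called at 13 of the intronic peaks (0.496%, 0.290 to 0.847). The share was 1.08% of all LSD1 peaks, which include those shared with GFI1. Without GFI1, it was 0.374% of promoter, 0.319% of intergenic and 0.270% of exonic peaks, and no difference from these classes was detected. The intronic peaks shared with GFI1 stood at 11.4%. The absence of a GFI1 call in sg-NT cells entered the choice of the regions, so this last value is a description. At these 13 sites GFI1 had no call in sg-NT cells by the rule. They made up 8.13% of the 160 GFI1 peaks of sg-LSD1 cells. The GFI1 summit lay within 200 bp of the LSD1 summit at all 13, with a median gap of 33 bp, and 0 of the 13 held the GFI1 or the GATA core in 50 bp. FAM117A had the strongest LSD1 peak of these, with 48 fragments and a fold of 18.4, and a GFI1 fold of 6.63 in sg-LSD1 cells. The GFI1 folds were 5.34 in MRAP2, 8.87 in MTA3, which encodes a subunit of the NuRD repressor complex, and 8.40 in TOX. In CUBN, an endocytic receptor gene, the GFI1 fold was 6.47 in sg-LSD1 cells and 8.08 in THP1 cells. Over the 13 sites the GFI1 fold ranged from 4.33 to 15.5 with a median of 8.31. The largest was that in PKHD1, where LSD1 had 11 fragments and a fold of 7.36. The peak in S100Z, which was singled out after its values were seen, overlapped a peak of each of the 3 lists, with a fold of 11.3 for GFI1 in sg-LSD1 cells, 14.8 for GFI1 and 7.12 for SPI1 in THP1 cells. With 1 library each, a gain of GFI1 and the spread between libraries cannot be told apart at these sites.

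**Figure D2:**
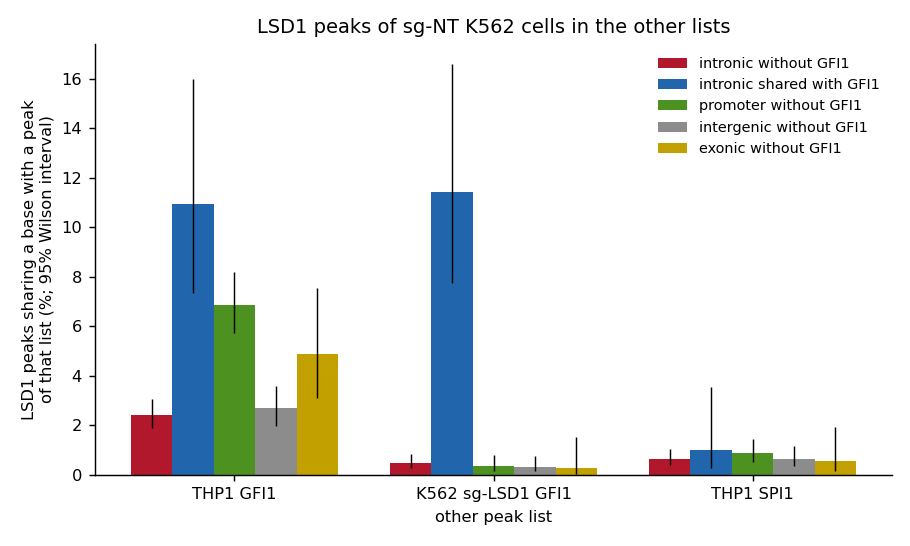
Share of LSD1 peaks of sg-NT K562 cells that share at least 1 base with a peak of 3 other lists, in percent with 95% Wilson intervals, by class of LSD1 peak. The intronic peaks without GFI1 stand at 2.41% for GFI1 in THP1 cells, 0.496% for GFI1 in sg-LSD1 cells and 0.649% for SPI1, while intronic peaks shared with GFI1 reach 10.9% and 11.4% in the GFI1 lists.

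Gene lists for blood cells were set beside the share of 8.02% of all protein-coding genes. Of 30 erythroid and stem cell transcription factors, 13 held an intronic peak without GFI1, and their median intronic sequence was 75.5 kb. The strongest lay in intron 1 of LDB1, the adaptor that joins GATA1 and TAL1 complexes, with 32 fragments and a fold of 20.2 in a gene with 7.84 kb open to the rule. The LDB1 summit held a MIR word and the E-box core. In RUNX1, a factor of blood stem cells, the strongest of 3 peaks had 20 fragments and a fold of 12.9. SOX6, a repressor of fetal globin, also held 3, the strongest with a fold of 12.6 and the GATA core. NFIA and LMO2 had folds of 11.7 and 10.0, both with the GATA core, and ZFPM1 had 10.2. GFI1B, the erythroid relative of GFI1, held 2 peaks with folds of at most 6.23, and none of the 4 LSD1 peaks in its gene body had GFI1. Of 10 myeloid factors, including SPI1 and CEBPA, 0 held a peak, in genes with a median of 6.50 kb of such sequence.

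Among LSD1 and its partners, 5 of 18 genes held a peak, with 30 of the 35 peaks in GSE1. The median over this list was 44.2 kb of intronic sequence open to the rule. KDM1A, the gene of LSD1 itself, had 1 peak of 7 fragments and a fold of 4.91 in intron 1. RCOR1 had a fold of 12.3, SNAI1, a SNAG domain repressor, one of 10.4, and the stronger of both peaks in PHF21A, the CoREST complex subunit BHC80, one of 7.67.

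Of 30 genes of heme synthesis and the red cell membrane, 12 held a peak, with a median of 23.6 kb of such sequence over the list. The membrane skeleton gene SPTB (beta-spectrin) had a fold of 12.2, the glucose transporter SLC2A1 one of 11.7, the transferrin receptor TFR2 one of 9.41 and the anion exchanger SLC4A1 (band 3) one of 7.75. RHD, which carries the Rh antigen D and here overlaps RSRP1, had 15 fragments and a fold of 9.07. RHD has a near-identical neighbor, RHCE, which held 2 peaks, so the positions in both genes are uncertain. GYPB held 3 peaks with folds of at most 8.05, and there too reads may have been placed among copies.

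Of 25 genes of cytokine receptors and signaling, 7 held a peak, with a median of 43.5 kb of such sequence over the list. CSF3R, the G-CSF receptor, had 28 fragments and a fold of 17.8 in intron 4 with a MIR word, and JAK1 a fold of 12.9. STAT3 and IL3RA, the receptor of interleukin 3, each had 11 fragments and a fold of 7.36. Of 20 megakaryocyte and platelet genes, 3 did (TBXAS1, ANGPT1 and RAB27B, with folds of 7.05, 7.88 and 4.30), and their list had a median of 8.44 kb of intronic sequence. Of 20 genes of neutrophil granules and phagocytes, 3 held a peak, with a median of 5.22 kb. PRTN3, which encodes proteinase 3, had 38 fragments and a fold of 15.1 in intron 1, 1064 bp from the nearest coding start, and this site also had GFI1 in THP1 cells with a fold of 10.3. The PRTN3 summit held a MIR word and the E-box core. ELANE, the neighboring elastase gene, and NCF4, an oxidase subunit, had folds of at most 7.98 and 5.36. The lists differed in intronic length, and some of their genes, such as CEBPA, SOCS1, GP1BA, PF4 and CD14, had no intronic sequence open to the rule. Such genes could not hold a peak but count in the totals. The shares of the lists were therefore not compared with each other.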

How the data were processed

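Per the submitters' processing notes and the study's methods, the steps before deposit were Trim Galore 0.6.1 (adapters), Bowtie2 2.5.4 (alignment, GRCh38), Picard 3.1.0 (duplicates) and MACS2 2.2.9.1, which called each library's peaks on its own with p below 1e-05, followed by removal of peaks in the ENCODE blacklist. Whether the input served as control is not given in the sources used here. Per peak, the authors deposited the fold, a ratio of signal to local background, and the p-value and q-value on a −log10 scale. The score deposited by the authors (and the position columns) served no test. Regions were classed with GENCODE release 44, taking starts of transcripts of type protein_coding. Background and fragments, taken as whole numbers, were solved from fold and −log10 p (MACS2 pseudocount of 1). The solution met the deposited −log10 p within 0.1% for 100% of the LSD1 peaks. The median of 13 fragments limits the depth. The genome-wide background was 0.630. Overlap means 1 shared base and was checked with bedtools 2.31.1. Shares have 95% Wilson and differences 95% Newcombe intervals. The code was tested on simulated data. Sites named are the 10 strongest by −log10 p, the 5 strongest at each other list, the genes with most peaks, up to 6 genes per gene list, and the sites at each threshold and PRTN3. Some named sites and sequences are not reported here. The members, gene lists and rules were chosen with earlier results of these data known. Alternatives were stricter p and q limits, other overlaps, a promoter distance of 5000 bp, coding genes only, other windows, flanks and cores, and a wider interval. Starts of all transcripts of coding genes, a −log10 p of at least 20 and the removal of repeat words were added after seeing the data. Python 3.11.15, numpy 2.4.6, scipy 1.17.1, pandas 2.3.3, pysam 0.24.0, samtools 1.23.1 and matplotlib 3.10.9 were used.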

Additional observations from a re-analysis of the deposited data

How the results depend on the processing

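Of 279 values of 23 results under other settings, 253 kept their side of 0 or stayed within the interval or 1.5 times the count reported, and 0 reversed. With a −log10 p of at least 8, the median −log10 p was 12.7, the STAT core differed from the flanks by 0.542 percentage points, now apart from 0, and the GATA core from the GFI1-shared peaks by −4.19, no longer apart from 0. With a promoter distance of 5000 bp, 32.7% lay in intron 1 and the median distance was 23840 bp. The share of intron 1 in the bases open to the rule was not computed at 5000 bp. With coding genes only, the distance was 11928 bp, the NFE2 core differed by 0.117, no longer apart from 0, the STAT core by 0.584, now apart, and the GATA core from the shared peaks by −2.72. With starts of all transcripts of coding genes, the distance was 11082.5 bp. With summits within 200 bp, 1.76% lay at GFI1 peaks of THP1 cells, and with 50% overlap 0.382% at SPI1 peaks. With a −log10 p of at least 20, the shares at GFI1 and SPI1 peaks of THP1 cells and at GFI1 peaks of sg-LSD1 cells were 4.45%, 1.48% and 0.890%, and the GFI1 and GATA cores differed from the shared peaks by −0.642 and −0.818. In windows of 200 bp, the SPI1 and STAT cores differed from the flanks by 0.573 and 1.68, both now apart from 0, and with GAGGAA the SPI1 core by 1.09. With flanks at 5000 bp, the NFE2 core differed by 0.115, and with the wider interval its 0.172 and the −4.27 of the GATA core were not apart from 0. With GFI1 peaks within 500 bp or 50% overlap, the latter was −4.06 or −3.94. Without peaks with repeat words, the KLF core differed by 1.60, now apart from 0. The cause of these changes was not tested. The GATA core against the GFI1-shared peaks was no longer apart from 0 under 6 of these settings. No paired analysis was possible because each K562 and THP1 condition had 1 library and the mouse libraries that share numbers were not used here. With 1 library and a median of 13 fragments per summit, GFI1 signal below the calling threshold counted as absent.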
